A study of Mus musculus with 16 samples.

Results

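The cytosolic ribosome of a mouse cell is built from ribosomal RNA and a fixed set of ribosomal proteins, each encoded by a gene of its own. Their genes were followed here across 16 bulk RNA-seq libraries from tumours of B16F10, a mouse melanoma line. Protein-coding rows were taken whose symbol was Rpl or Rps followed by a number (with an a or x where the standard name has one), Rplp0 to Rplp2, or Rpsa. That rule found 76 of the 54532 genes in the table, 46 of the large and 30 of the small subunit, and it used no measured value. Fau and Rps3a1 encode core ribosomal proteins too, but their symbols fall outside the rule and they are given separately.

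Tumours grew under the skin of the right flank of 8-week-old C57BL/6J mice of both sexes and were taken at end stage. The 4 groups were BdP tumours under cisplatin, BdP tumours under PBS, WT tumours under cisplatin and WT tumours under PBS, with 4 libraries each. BdP tumours came from B16F10 cells that the titles call Pros1-deficient and the genotype label calls a Pros1 knockdown. WT tumours came from the B16F10 line itself, and all groups had hosts of the same strain and age. Cisplatin, a platinum drug that crosslinks DNA, was injected into the peritoneum at 5 mg/kg once a day for 3 days in 2 rounds that began once tumours could be felt, and PBS was given in the same way. The labels give neither the number of clones behind the BdP line nor whether equal replicate numbers mark anything shared. P-values measure the spread between these tumours.

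Each ribosome holds a single copy of most of these proteins, and cells make them in matched amounts. Most of their mRNAs in vertebrates begin with a run of pyrimidines, the 5′ terminal oligopyrimidine or TOP tract, through which mTOR signalling and the protein Larp1 set how strongly the whole class is translated. Transcription of the class is raised by Myc, and several free ribosomal proteins, Rpl5 and Rpl11 among them, bind Mdm2 and so stabilise p53 when ribosome assembly fails. In melanocytes and melanoma their mRNAs are among the most abundant of the cell.

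RefSeq promoters (build GRCm38.p6) were matched for 56 of the 76 genes. The tract can be seen in a window of 30 bases, 15 before and 15 from the annotated start onward, printed 5′ to 3′ on the gene's strand with its longest run of C and T in capitals. The first 4 genes show the class feature and the last 3, on which later results turn, show how the annotated start of other members lacks it.
Rps6, chr4:86857353-86857382, minus strand: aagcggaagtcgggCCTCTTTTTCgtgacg
Rpl15, chr14:18270972-18271001, minus strand: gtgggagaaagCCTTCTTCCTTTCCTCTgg
Rpl27a, chr7:109519180-109519209, plus strand: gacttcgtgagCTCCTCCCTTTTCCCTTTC
Rps10, chr17:27635230-27635259, minus strand: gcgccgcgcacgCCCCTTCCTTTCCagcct
Rps2, chr17:24720048-24720077, plus strand: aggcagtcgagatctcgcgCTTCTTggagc
Rplp0, chr5:115559452-115559481, plus strand: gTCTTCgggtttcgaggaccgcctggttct
Rps28, chr17:33824548-33824577, minus strand: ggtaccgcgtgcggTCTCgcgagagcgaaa

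A run of at least 8 pyrimidines on the gene's strand (C or T in any order) lay in this window in 23 of the 56 genes (41.1%). It lay there in 11.9% of the 27025 genes with a RefSeq promoter. The annotated start can differ from the one these tumours use, so a window without the run says only that the letters are not there. The 23 genes with the run and the 32 tested genes without it had nearly equal medians of spread, an SD of 0.34 and 0.32 on the log2 scale. The promoter of Rps14 was not among those matched.

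Levels are in FPKM, that is, fragments divided by gene length and by a scaling factor of each library that the authors set. For 72 of the 76 genes that length equalled all exon bases annotated in GENCODE M21, for example 499 for Rplp1 and 2072 for Rplp2. It can exceed the length of the mRNA present, so the order of levels between genes also depends on the annotation. Reads assigned to genes ran from 10051843 in WT PBS 1 to 27055771 in BdP cisplatin 1. Mitochondrial transcripts made up 12.2% of the reads of WT cisplatin 3, 21.7% of those of WT cisplatin 4 and 76.9% of those of WT PBS 1, while 13 libraries had 2.03% to 5.06%. Median fold changes are therefore also given without WT PBS 1 or without all 3, while levels, spread and correlations cover all 16 libraries. Pros1, the targeted gene, averaged 2.21 ± 0.345 FPKM in BdP cisplatin and 1.5 ± 0.179 FPKM in BdP PBS tumours, against 10.3 ± 1.74 FPKM in WT cisplatin and 6.47 ± 2.25 FPKM in WT PBS tumours (SD, n = 4 each). The 7 melanocyte and melanoma markers, Pmel and Tyrp1 among them, summed to between 4648 and 8596 FPKM over the 16 libraries. Leukocyte markers (5 genes, Ptprc among them) summed to 114 to 328 FPKM in BdP cisplatin, 70.7 to 647 in BdP PBS, 18.1 to 167 in WT cisplatin and 8.62 to 299 in WT PBS tumours. In bulk tumour RNA, fewer cells of a type and less RNA per cell cannot be told apart.

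The ribosomal protein genes took 1.81% of all reads in WT PBS 1 and 4.93% to 7.62% in the other 15 libraries. Among reads that were neither mitochondrial nor from haemoglobin genes the share ran from 5.24% in WT PBS 3 to 8.35% in BdP PBS 2, with 8.10% in WT PBS 1. Of the 76 genes, 75 had at least 1 FPKM in at least 4 libraries and were tested among 12319 genes, while Rpl24 was not. Their median level in a library was 256, 344, 337 and 290 FPKM in BdP cisplatin 1 to 4 and 243, 427, 329 and 255 FPKM in BdP PBS 1 to 4. It was 333, 261, 358 and 363 FPKM in WT cisplatin 1 to 4 and 556, 351, 238 and 319 FPKM in WT PBS 1 to 4. The 4 groups overlapped, and both the highest and the lowest library, 2.34-fold apart, were WT PBS tumours.

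**Figure D1:**
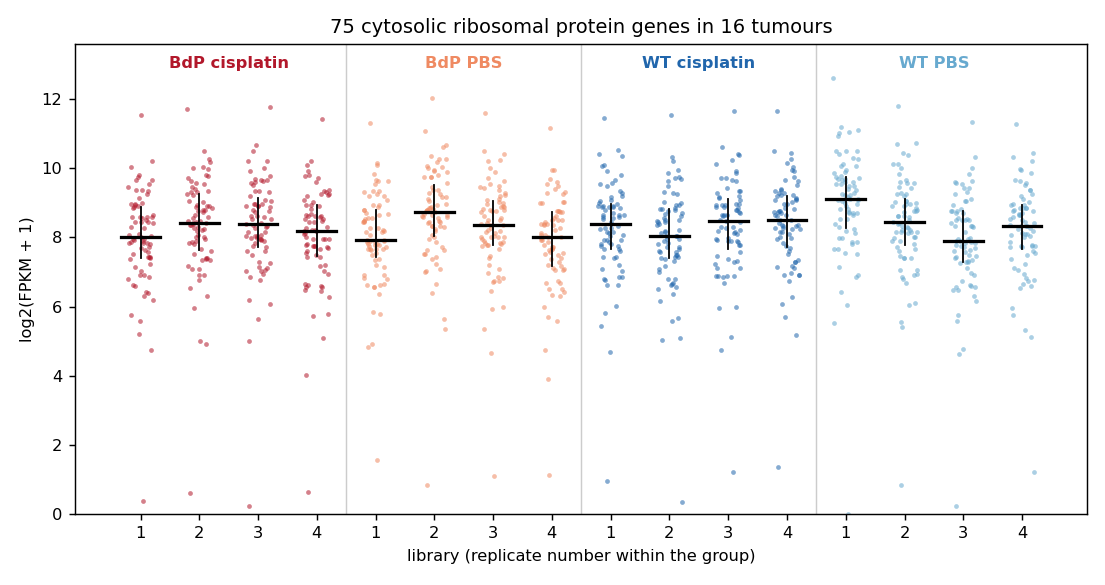
Levels of the 75 tested ribosomal protein genes, as log2(FPKM + 1) on the vertical axis, in each of the 16 libraries, grouped as BdP cisplatin, BdP PBS, WT cisplatin and WT PBS. Each point is a gene, the bar is the median and the line spans the quartiles. WT PBS 1 has the highest median (556 FPKM) and WT PBS 3 the lowest (238 FPKM).

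By group, the library medians averaged 307 ± 41.3 FPKM in BdP cisplatin, 314 ± 84.9 in BdP PBS, 329 ± 47.0 in WT cisplatin and 366 ± 135 in WT PBS tumours (SD, n = 4 each). The group means lie closer together than the libraries within the PBS groups. Over the 75 genes, 88.6% of the variance of log2(FPKM + 1) between libraries lay within groups.

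Of the 3 genes of the stalk, which recruits elongation factors to the large subunit, 2 stood at the top of the order of levels. Rplp1, a stalk protein, had 2998, 3359, 3535 and 2748 FPKM in BdP cisplatin, 2551, 4175, 3092 and 2307 FPKM in BdP PBS, 2832, 2961, 3204 and 3250 FPKM in WT cisplatin, and 6318, 3549, 2570 and 2471 FPKM in WT PBS tumours. Its highest value was in WT PBS 1, and the groups overlapped. Rplp0, the stalk's base, followed with a group mean of 1366 ± 223 FPKM in BdP cisplatin, 1411 ± 514 in BdP PBS, 1313 ± 68.3 in WT cisplatin and 1565 ± 419 in WT PBS tumours (SD, n = 4 each). Rpl32, Rpl36 and Rps15, the next of the 5 highest, averaged 1359, 1154 and 1137 FPKM over the 4 group means. Rplp2, which pairs with Rplp1 in the stalk, was far lower on this scale, at 145 to 321 FPKM over the 16 libraries.

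The partners of the 5S ribosomal RNA had similar levels per length. Rpl5 lay between 198 and 383 FPKM and Rpl11 between 157 and 372 FPKM over the 16 libraries. Among proteins near the catalytic centre and the exit tunnel of the large subunit, Rpl3, which lies close to the peptidyl transferase centre, lay between 419 and 717 FPKM. Rpl4, whose loop lines the exit tunnel, lay between 723 and 1444 FPKM. Rpl10, which joins late in assembly, lay between 334 and 777 FPKM. Rpl39 and Rpl41, both very short proteins, lay between 174 and 419 FPKM and between 512 and 1115 FPKM. Of Rpl23 and Rpl26, which like Rpl11 can bind Mdm2, Rpl23 lay between 200 and 556 FPKM and Rpl26 between 359 and 1367 FPKM. Rpl22, which has a paralogue in Rpl22l1, was among the lower genes at 89.2 to 188 FPKM.

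On the small subunit, Rps6, the substrate of S6 kinase, had 614, 842, 785 and 643 FPKM in BdP cisplatin, 653, 984, 723 and 607 FPKM in BdP PBS, 759, 637, 793 and 785 FPKM in WT cisplatin, and 1446, 767, 613 and 730 FPKM in WT PBS tumours. It thus followed the libraries more than the groups, with WT PBS 1 above all other libraries. Rps3, at the mRNA entry channel, lay between 238 and 514 FPKM, Rps19, the gene most often mutated in human Diamond-Blackfan anaemia, between 94.5 and 252 FPKM, and Rps26, at the mRNA exit, between 256 and 665 FPKM. Rps4x on chromosome X lay between 620 and 1082 FPKM in 15 libraries and reached 1256 FPKM in WT PBS 1. Rpsa, also known as the laminin receptor, lay between 511 and 1075 FPKM. At the level of subunits, the median of large-subunit genes minus that of small-subunit genes was −0.22 ± 0.018 in BdP cisplatin, −0.24 ± 0.16 in BdP PBS, −0.29 ± 0.11 in WT cisplatin and −0.26 ± 0.091 in WT PBS tumours on the log2 scale (SD, n = 4 each). The 4 means differed from each other by less than the SD of BdP PBS, WT cisplatin or WT PBS tumours.

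The lowest 5 genes were Rpl35a, Rpl13a, Rpl21, Rps10 and Rpl24, and 4 of them overlap other annotated genes or have copies of higher level. Rps10, a small-subunit protein, had 0.298, 0.526, 0.163 and 0.553 FPKM in BdP cisplatin, 1.95, 0.785, 1.14 and 1.18 FPKM in BdP PBS, 0.935, 0.265, 1.32 and 1.55 FPKM in WT cisplatin, and 0, 0.792, 0.169 and 1.31 FPKM in WT PBS tumours. That is at most 136 reads in a library, for a protein of every ribosome. A named copy, Rps10-ps2 on chromosome 16, averaged 275 FPKM, and 20.6% of the Rps10 exons lie on the same strand as the exons of a read-through gene, RPS10-NUDT3. Rpl24 held at most 44 reads in a library, and 47.0% of its exons are shared with Gm28037. Rpl13a, which averaged 35.2 FPKM over the group means, shares 35.4% with Gm45713. All 3 overlapping genes were listed at 0 FPKM. Rpl21 averaged 33.3 FPKM, against 200.4 FPKM for the sum of its 15 named copies.

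Pseudogenes named after a ribosomal protein gene were found for 58 of the 76, 287 in all. Their summed level exceeded that of the gene itself for Rps10, Rpl21 and Rpl17, and 0.1 of it for 24 genes. The values of these genes are uncertain, since the counting can split reads between near-identical sequences, and the strand setting of the counting is not given in the sources used here. Rpl35, Rpl23a and 4 others share over 20% of their exons with a gene on the opposite strand.

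Most of the 75 genes varied together from tumour to tumour. The mean correlation between 2 of them over the 16 libraries was 0.736, a description over libraries that share depth and scaling. It was not computed without WT PBS 1 or over other sets of genes, so it is not shown to be particular to these genes. A shift common to all 75 genes of a library held 64.5% of the variance. WT PBS 1 was the highest library for 59 of the 75 genes and BdP PBS 2 for 9. BdP PBS 4 was the lowest for 37 and WT PBS 3 for 22. The median gene had an SD of 0.33 (log2) over the 16 libraries, against 0.26 over all genes tested, and of 0.15 once each library's median of these genes was subtracted.

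**Figure D2:**
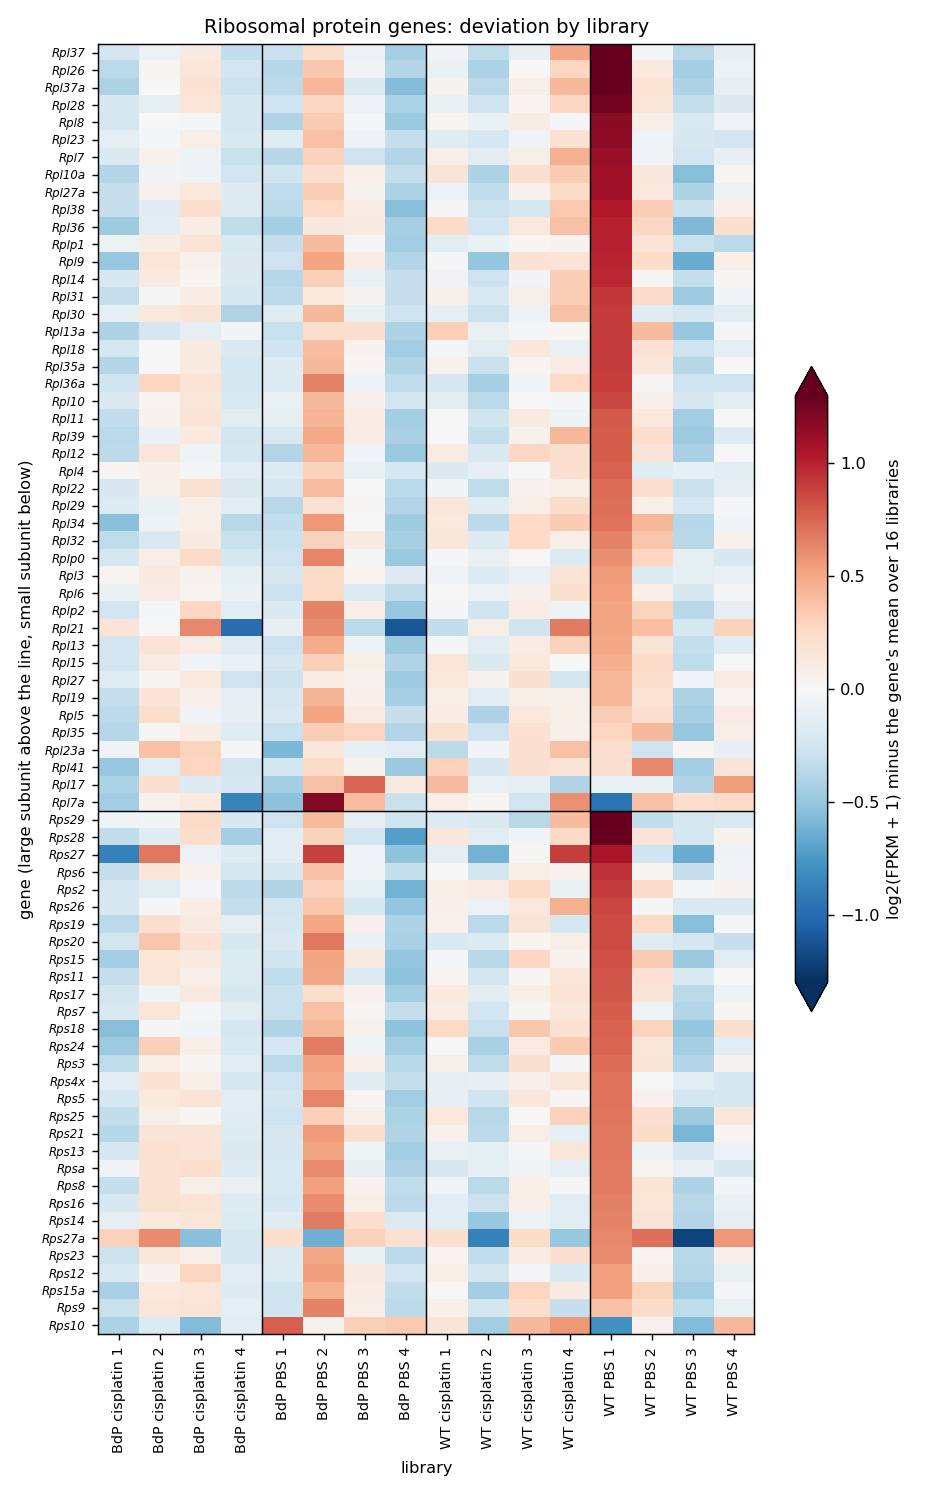
Deviation of each of 74 tested genes (rows, large subunit above the line, small subunit below) from its own mean over the 16 libraries (columns), in log2(FPKM + 1). Red is above and blue below the mean. WT PBS 1 and BdP PBS 2 are red and BdP PBS 4 and WT PBS 3 blue in most rows, while Rps10, Rpl7a, Rpl17 and Rps27a differ.

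Rps3, Rpl12, Rps7 and Rpl35a kept closest to the common shift, with an SD of 0.07 to 0.09 relative to the median of the genes. Rps3 is itself that median in some libraries, so its small SD is partly built in. Rpl22 and Rpl35a had the highest mean correlations with the others, 0.843 and 0.845. Rps10, Rpl7a, Rpl17, Rps27a and Rpl23a had the lowest, from −0.192 to 0.385. Rpl7a, of the large subunit, had 119, 169, 178 and 88.9 FPKM in BdP cisplatin, 112, 374, 215 and 133 FPKM in BdP PBS, 173, 166, 136 and 247 FPKM in WT cisplatin, and 83.9, 212, 190 and 193 FPKM in WT PBS tumours. WT PBS 1, where most of the genes peaked, was its lowest library, and its groups overlapped. Rps27a, made as a fusion with ubiquitin, had 248, 310, 139 and 173 FPKM in BdP cisplatin, 234, 130, 249 and 231 FPKM in BdP PBS, 234, 109, 239 and 143 FPKM in WT cisplatin, and 312, 332, 87.3 and 300.1 FPKM in WT PBS tumours. Low values occurred in all 4 groups. Its SD, 0.59, was among the 5 highest, with Rps27 (0.59), Rpl7a (0.55), Rpl21 (0.54) and Rpl37 (0.48). The steadiest by SD were Rpl3 (0.20), Rpl6, Rpl27, Rpl15 and Rpl4 (0.25).

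The first question of the design was whether cisplatin changed these genes. Differences were tested with limma on log2(FPKM + 1), and a gene was called at an adjusted p below 0.05 (Benjamini-Hochberg over all 12319 genes). None of the 75 genes was called under cisplatin in BdP tumours, in WT tumours or over both. Of all genes tested, 0% were called in BdP tumours, 0.00812% (1 gene) in WT tumours and 0% over both. At an unadjusted p below 0.05 there were 1 of the 75 genes in BdP tumours, 0 in WT tumours and 0 over both, while 4.4%, 7.74% and 6.34% of all genes tested lay below it. The moderated standard errors of these genes within a genotype ran from 0.16 to 0.42. A call needs a change well above its standard error, so changes larger than these errors could also go uncalled.

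In BdP tumours the median log2 fold change of the 75 genes was −0.013, with 33 higher and 42 lower under cisplatin, against −0.003 for all genes tested. That sign too depended on single libraries: without BdP PBS 2 the median was 0.15, with 69 higher and 6 lower, and without BdP PBS 4 it was −0.14, with 3 higher and 72 lower. In WT tumours it was −0.13, with 6 higher and 69 lower, against −0.006. The sign in WT tumours depended on which libraries were left out. Without WT PBS 1 the median was 0.076, with 59 genes higher and 16 lower. Without the 3 libraries rich in mitochondrial reads it was −0.031, with 24 higher and 51 lower. The cisplatin contrast over both genotypes had a median of −0.087, with 4 genes higher. Without WT PBS 1 that median was 0.027, with 50 genes higher. Without the 3 libraries rich in mitochondrial reads it was −0.028, with 23 higher and 52 lower. Without BdP PBS 2 it was −0.0036, with 36 higher and 39 lower, and on TPM without mitochondrial and haemoglobin genes it was 0.062, with 66 higher. That rescaling moved the median of all genes tested to 0.13, so that the ribosomal protein genes stood at −0.065 relative to it.

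The genes with the smallest p under cisplatin, none of them called, included several whose values are uncertain for their copies. In BdP tumours the 5 smallest belonged to Rps10 (log2 fold change −0.69 ± 0.28, unadjusted p = 0.0239), Rpl23a (0.32 ± 0.19), Rpl17 (−0.35 ± 0.26), Rpl7a (−0.47 ± 0.37) and Rpl6 (0.12 ± 0.16), all with an adjusted p of 1. In WT tumours they belonged to Rps10 (0.39 ± 0.28), Rpl38 (−0.33 ± 0.26), Rps14 (−0.29 ± 0.23), Rpl10 (−0.27 ± 0.22) and Rpsa (−0.23 ± 0.22), with adjusted p from 0.698. Errors are moderated standard errors. Over both genotypes they belonged to Rpl23a, Rps14, Rpl10, Rpl17 and Rpl35a, with log2 fold changes from −0.22 to 0.20 and adjusted p from 0.859.

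The interaction asked whether the response to cisplatin in BdP tumours differed from that in WT tumours. None of the 75 genes was called, nor was any gene tested (0%). At an unadjusted p below 0.05 there was 1 of the 75 genes, against 5.61% of all genes tested. The smallest p belonged to Rps10 (difference of log2 fold changes −1.09 ± 0.39, adjusted p = 0.835), followed by Rpl7a, Rpl38, Rpl27 and Rpsa. The median over the 75 genes was 0.12, with 63 positive, against 0.007 for all genes tested, and −0.10 with 11 positive without WT PBS 1. Without the 3 libraries rich in mitochondrial reads it was 0.022, with 43 positive.

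The second question was whether the loss of Pros1 changed them. None of the 75 genes was called in BdP against WT tumours, whether under cisplatin, under PBS or over both treatments. Of all genes tested 1.07% were called under cisplatin, 0.99% under PBS and 5.86% over both. At an unadjusted p below 0.05 there were 0 of the 75 genes under cisplatin, 1 under PBS and 1 over both, while 13.8%, 19.3% and 25.8% of all genes tested lay below it. Under cisplatin their median log2 fold change was −0.063, with 23 higher and 52 lower, against 0.007 for all genes. Under PBS it was −0.17, with 7 higher and 68 lower, against 0.011 for all genes. Over both treatments it was −0.11, with 11 higher and 64 lower, against 0.006 for all genes.

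The direction of this lean to lower levels in BdP tumours depended on a few libraries. Without WT PBS 1 the median over both treatments was −0.013, with 34 of 75 genes higher, and under PBS it was 0.028. Without the 3 libraries rich in mitochondrial reads it was 0.056 over both treatments, with 48 higher and 27 lower. Under cisplatin it was 0.066 without those libraries, with 51 higher and 24 lower, and 0.0044 without BdP cisplatin 1, with 38 higher and 37 lower. Rescaling to TPM without mitochondrial and haemoglobin genes gave a median of 0.072 over both treatments, with 51 higher and 24 lower. The same rescaling moved the median of all genes tested to 0.17, so that the ribosomal protein genes stood at −0.10 relative to it. The summed leukocyte markers given above ranged higher in BdP than in WT groups, and their part in the medians was not tested.

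**Figure D3:**
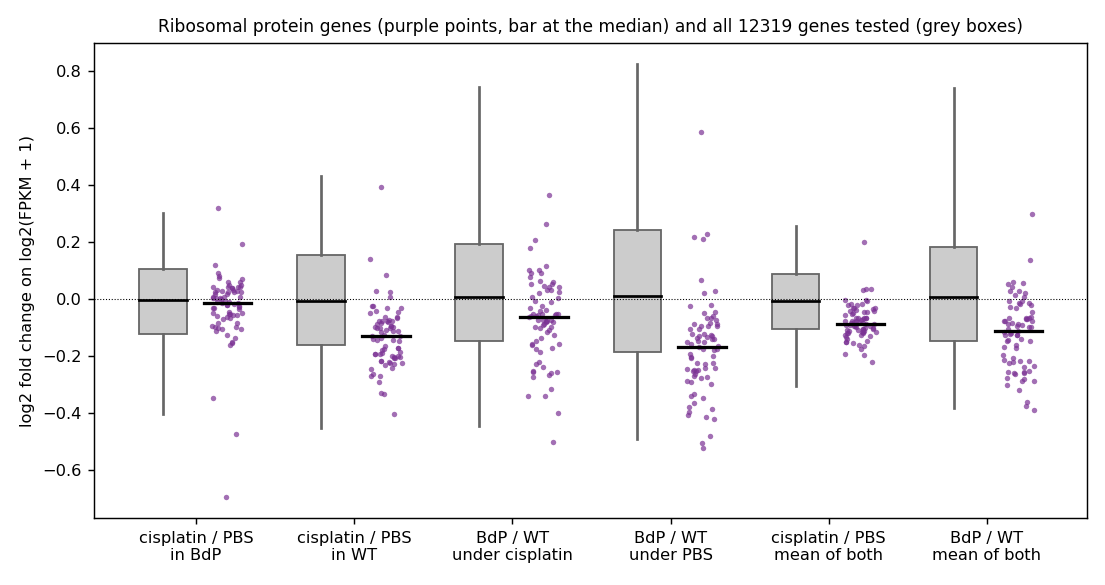
Log2 fold changes on the log2(FPKM + 1) scale for the 75 ribosomal protein genes (purple points, bar at their median) and all 12319 genes tested (grey boxes, quartiles with the 5th to 95th percentiles as lines and the median as a bar). Contrasts are cisplatin over PBS in BdP and in WT, BdP over WT under cisplatin and under PBS, and both means. Most points lie within the lines of all genes, Rps10 at −0.69 in BdP being the farthest outside, and their medians run from −0.17 to −0.013.

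Rps2, a small-subunit protein at the mRNA entry, had the smallest p over both treatments. It had 661, 697, 765 and 612 FPKM in BdP cisplatin and 591, 955, 708 and 505 FPKM in BdP PBS, against 816, 835, 923 and 730 FPKM in WT cisplatin and 1452, 919, 766 and 801 FPKM in WT PBS tumours. All but 2 BdP libraries lay below all 8 WT libraries, those 2 being BdP cisplatin 3 and BdP PBS 2. The log2 fold change was −0.39 ± 0.15 (limma, adjusted p = 0.133). With libraries weighted by their quality in limma it was called (−0.40, adjusted p = 0.0315), as the sole one of the 75 genes, where 12.1% of all genes were called. Without WT PBS 1 it was −0.29 (adjusted p = 0.173).

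Also among the smallest p over both treatments were Rpl27 (−0.22 ± 0.11), Rps28 (−0.38 ± 0.20) and Rpl36 (−0.36 ± 0.20), with limma adjusted p from 0.238 to 0.264. Under cisplatin the smallest included those of Rps10 (−0.50 ± 0.28), Rps18 (−0.34 ± 0.26), Rps2 (−0.27 ± 0.22) and Rpl34 (−0.32 ± 0.26). Under PBS the 5 smallest belonged to Rps2 (−0.50 ± 0.22), Rps10 (0.59 ± 0.28), Rpl27 (−0.33 ± 0.16), Rps28 (−0.52 ± 0.28) and Rpl38 (−0.42 ± 0.26). Rps10 thus had opposite signs under the 2 treatments, at under 2 FPKM in each library. None of these was called.

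By role, the stalk genes averaged close to no change in BdP against WT tumours. Over both treatments Rplp0 differed by −0.07 ± 0.17, Rplp1 by −0.09 ± 0.20 and Rplp2 by −0.02 ± 0.16 on the log2 scale. The 5S partners Rpl5 and Rpl11 differed by −0.03 ± 0.15 and −0.07 ± 0.16. Of the 18 genes mutated in human Diamond-Blackfan anaemia 17 were lower and 1 higher, none called, with a median of −0.11, against −0.11 over all 75 genes. The large-subunit genes had a median of −0.14 (42 of 45 lower) and the small-subunit genes one of −0.07 (22 of 30 lower).

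The fit was repeated on values relative to the median of these genes in each library, to set aside their common shift. This setting was chosen after the data were seen. Again none of the 75 genes was called over both treatments, where 0.317% of all genes were. Rps14, a small-subunit protein whose human gene lies in the region lost in 5q- syndrome, is given here with its relative values. In log2 units it stood at 1.35, 1.19, 1.25 and 1.13 in BdP cisplatin and 1.41, 1.43, 1.36 and 1.31 in BdP PBS, against 0.97, 0.97, 0.93 and 0.83 in WT cisplatin and 1.01, 1.20, 1.22 and 1.05 in WT PBS tumours. Within each treatment the BdP libraries lay above the WT libraries, and its log2 fold change on this scale was 0.28 ± 0.10 (limma, adjusted p = 0.227). Rps2 differed by −0.24 ± 0.12 and Rpl36 by −0.22 ± 0.11 on the same scale.

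**Figure D4:**
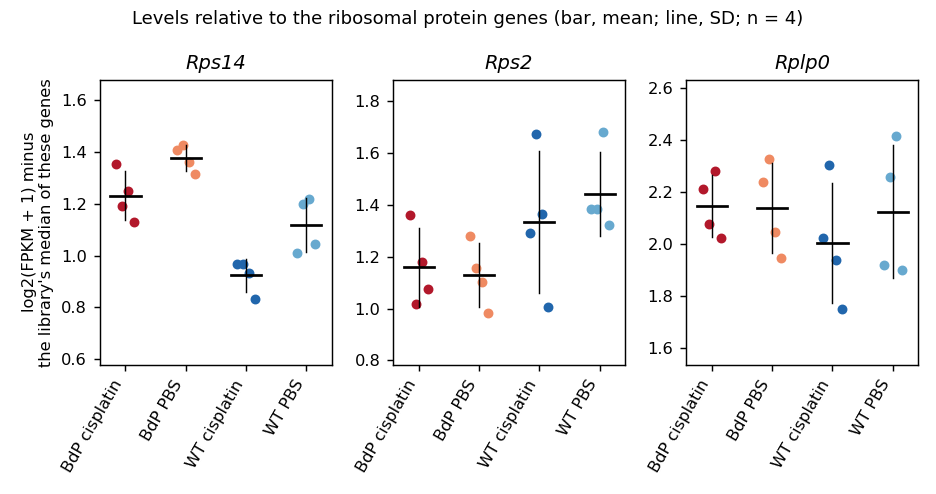
Levels of Rps14, Rps2 and Rplp0 relative to the median of the ribosomal protein genes of the same library, in log2 units, for BdP cisplatin, BdP PBS, WT cisplatin and WT PBS. Points are libraries, the bar is the mean and the line the SD of 4. For Rps14 the BdP libraries (1.13 to 1.35 under cisplatin, 1.31 to 1.43 under PBS) lie above the WT libraries of the same treatment (0.83 to 0.97 and 1.01 to 1.22), while for Rplp0 they overlap.

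The log2 fold changes of Rps14 and Rps2, neither of them called, had the same sign as the medians of their chromosomal surroundings. Both genes were chosen with earlier results of these data known, so this is a description. Rps14 was at 0.14 over both treatments and at 0.068 under PBS. Rps14 lies on chromosome 18, from 60774510 to 60778546 on GRCm38. Of 23 other tested genes that start within 1 Mb of it, 19 were higher in BdP tumours over both treatments, with a median log2 fold change of 0.28. Rps2 lies on chromosome 17, from 24718116 to 24721929. Of its 49 neighbours 10 were higher and 39 not, and their median was −0.16.

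Over whole chromosomes, the other genes tested had a median of 0.22 on chromosome 18 and −0.13 on chromosome 17, where 84.2% of the genes on chromosome 18 and 30.6% of those on chromosome 17 were higher in BdP tumours. Of the 6 ribosomal protein genes on chromosome 17, Rps2, Rps28, Rpl36, Rps18 and Rpl10a were lower in BdP tumours, from −0.39 to −0.25, and Rps10 was at 0.04. The nearer surroundings of Rps28 and Rpl36 leaned less, with medians of −0.06 and −0.02 over their 60 and 46 neighbours. Both genes on chromosome 18, Rps14 and Rpl17, were positive over both treatments, at 0.14 and 0.06. Rpl17, whose values are uncertain for its copies, was at −0.096 under cisplatin and 0.21 under PBS. Chromosome 3 had a median of −0.17 over 594 other genes, and its ribosomal protein genes Rpl34 and Rps27 differed by −0.28 and −0.07. Chromosome 1 went the other way, with a median of 0.09 over its other genes and −0.29 over Rpl7, Rpl37a and Rpl31.

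**Figure D5:**
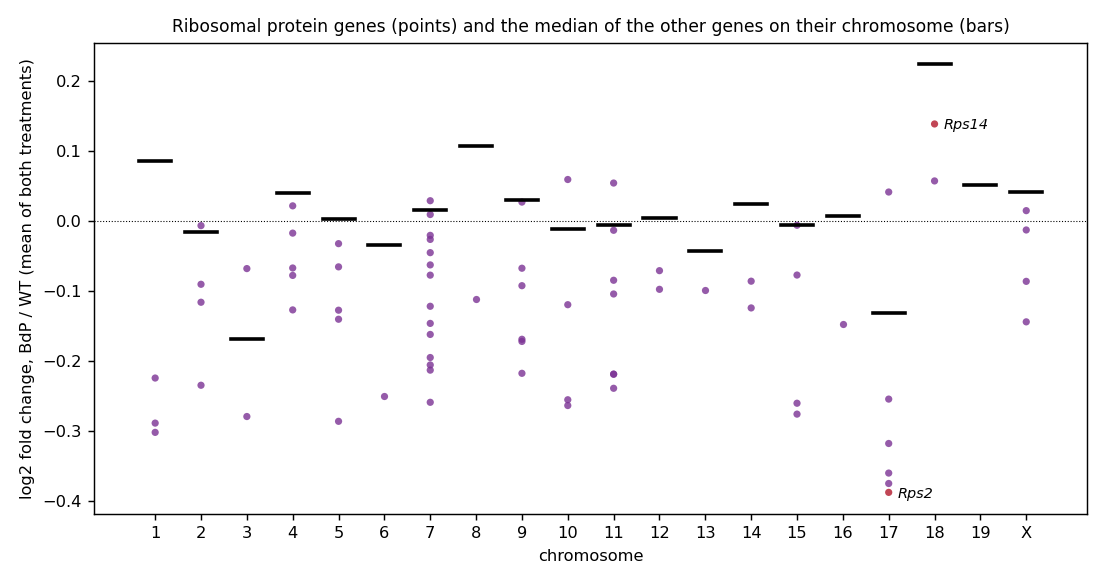
Log2 fold change of 74 tested ribosomal protein genes (points) in BdP over WT tumours, as the mean of both treatments, by chromosome, with the median of the other genes tested on that chromosome (bars). Rps14 (red) lies above 0 on chromosome 18, whose bar lies above 0 too, and Rps2 (red) lies lowest, on chromosome 17, at −0.39.

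Across the 75 genes, the log2 fold change over both treatments and the median of the other genes on the same chromosome had r = 0.447 and rho = 0.308. Genes of 1 chromosome share that median, so these are a description. Without the 3 libraries rich in mitochondrial reads r was 0.301. Under cisplatin alone it was 0.538, and 0.280 without those libraries. Under PBS alone it was 0.197. For cisplatin against PBS over both genotypes, where no difference in genotype enters, it was 0.195. Against the median of neighbours within 1 Mb, for the 72 genes with at least 5 of them, r was 0.465 over both treatments. It was 0.561 under cisplatin, 0.054 under PBS and 0.128 for cisplatin against PBS over both genotypes.

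The core ribosomal protein genes outside the rule had levels in the same span. Rps3a1, on the small subunit, had 1323 to 1790 FPKM in BdP cisplatin, 1229 to 2064 in BdP PBS, 1430 to 2100 in WT cisplatin and 1334 to 5091 in WT PBS tumours, the last in WT PBS 1. Fau, which encodes Rps30 as a fusion, averaged 683 ± 161 FPKM in BdP cisplatin, 726 ± 279 in BdP PBS, 605 ± 127 in WT cisplatin and 702 ± 188 in WT PBS tumours. Neither was called in any of the 7 contrasts.

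Of the 8 paralogues 4 were tested. Rpl7l1, on chromosome 17, fell in BdP tumours, with 24.3 ± 1.44 FPKM in BdP cisplatin and 24.8 ± 4.6 in BdP PBS, against 31.6 ± 4.67 in WT cisplatin and 34.0 ± 4.86 in WT PBS tumours (SD, n = 4 each). Its log2 fold change over both treatments was −0.40 ± 0.098 (limma, adjusted p = 0.0283), and it was called in 11 of the 16 fits that leave out 1 library. Rps27l, a p53 target related to Rps27, averaged 209 ± 12.8 FPKM in BdP cisplatin, 175 ± 40.4 in BdP PBS, 247 ± 44.5 in WT cisplatin and 239 ± 64.9 in WT PBS tumours and was not called. Rpl22l1, which averaged 34.0 ± 4.19 FPKM in BdP cisplatin, 41.7 ± 8.03 in BdP PBS, 49.3 ± 12 in WT cisplatin and 48.6 ± 16.2 in WT PBS tumours, was not called either.

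Genes that make ribosomes or share their regulation were counted in the same fits. In BdP against WT tumours over both treatments 11 of 175 such genes were called (6.29%, against 5.86% of all genes), and all 11 were lower. Of these 9 lie on chromosome 3 or 17, where 24 of the 175 lie. Apart from the ribosomal protein genes, all genes tested on chromosomes 3 and 17 leaned lower, with medians of −0.17 and −0.13. On each of the chromosomes they were also called more often than all genes tested. The 9 calls are thus not shown to be particular to genes that make ribosomes or share their regulation. Among 41 ribosome assembly factors 2 fell, Wdr43 (−0.27 ± 0.073, adjusted p = 0.0419) and the box C/D protein Nop56 (−0.32 ± 0.086, adjusted p = 0.0443). Their list had 34 lower and 7 higher, with a median of −0.12. Of 14 tested subunits and factors of RNA polymerase I, 1 fell, Polr1c (−0.30 ± 0.082, adjusted p = 0.0447). Of 24 other genes with TOP mRNAs, translation factors among them, 1 fell, the histone chaperone Nap1l1 (−0.30 ± 0.084, adjusted p = 0.0475). All these p are from limma. Leaving out 1 library at a time, Wdr43 kept its call in 4 of 16 fits and Nop56, Polr1c and Nap1l1 in 3 each.

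Among the 13 tested regulators of the class, Eif4e, the cap-binding protein, fell in BdP tumours. Eif4e lies on chromosome 3 and had 19.9 ± 0.639 FPKM in BdP cisplatin and 19.4 ± 1.98 in BdP PBS, against 26.6 ± 1.59 in WT cisplatin and 27.2 ± 1.38 in WT PBS tumours (SD, n = 4 each). Its log2 fold change over both treatments was −0.44 ± 0.059 (limma, adjusted p = 0.000775), and it was also called under cisplatin (adjusted p = 0.0333) and under PBS (adjusted p = 0.0171). Leaving out 1 library at a time, it was called in all 16 fits over both treatments. Myc averaged 23.0 ± 4.62 FPKM in BdP cisplatin and 29.4 ± 2.86 in BdP PBS, against 42.2 ± 10.0 in WT cisplatin and 28.0 ± 8.10 in WT PBS tumours, and missed the threshold under cisplatin (−0.84 ± 0.20, adjusted p = 0.0584). Mitochondrial ribosomal proteins had 5 of 77 genes called lower, Mrpl9 and Mrpl47 on chromosome 3 and Mrps10, Mrpl2 and Mrps18b on chromosome 17, with log2 fold changes from −0.51 to −0.37. Of these, Mrpl9 and Mrps10 were called in all 16 fits that leave out 1 library. Relative to the median of the cytosolic ribosomal protein genes in each library, none of the 11 genes was called. None of the genes of these lists was called in the cisplatin contrasts or in the interaction.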

How the data were processed

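The authors deposited 1 table of FPKM per gene and library. The submitters' processing notes name CASAVA, HISAT2 2.0.5, featureCounts 1.5.0-p3 and the mouse build GRCm38 (mm10), without their order. FPKM multiplied by gene length came in steps of 1 read, whole within 0.1 read for 100% of values, and the scaling so recovered equalled median-of-ratios size factors, so nothing was normalised again. Gene models were compared with GENCODE M21, where 72 of the 76 genes had the same exon length.

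The fit took log2(FPKM + 1) of every gene that reached 1 FPKM in 4 or more libraries. All 16 libraries shared 1 estimate of the spread in limma 3.58.1 under R 4.3.3, moderated by empirical Bayes with a mean-variance trend. P-values were adjusted by Benjamini-Hochberg. Fold changes on this scale understate those of low genes. Besides 5 contrasts of the design, 2 averaged the treatments or genotypes. The procedure was also run on simulated data. Genes varied independently there, so that run does not cover the common shift of the ribosomal protein genes. Named were called genes, the 5 smallest p per contrast, genes of set roles, and extremes of level and spread. The genes and lists were chosen with earlier results of these data known. A gene counted among the 76 and some values of related genes are not reported here. Alternatives are given at the end.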

Additional observations from a re-analysis of the deposited data

Results flagged for a closer look

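Across 43 named ribosomal protein genes and the library median of all of them, 176 groups of 4 libraries were examined for 1 value far from the other 3, and 13 were found. Chance alone flags about 1 in 20 groups of independent, normally distributed values. FPKM of genes that vary together are not such values, so the 13 cannot be read against that rate. In WT PBS 1, the library with 76.9% mitochondrial reads, 7 genes stood far above the other WT PBS libraries. They were Rpl3 at 717 FPKM, Rpl4 at 1444, Rpl23 at 556, Rpl26 at 1367, Rps26 at 665, Rpl37 at 536 and Rps28 at 253. Rps4x stood high in BdP PBS 2, at 1082 FPKM, the library with the highest median of its group. Rpl5 was low in WT cisplatin 2, at 203 FPKM against 283 to 294 in the other 3. Rps27a was low in a pair of libraries, BdP PBS 2 at 130 FPKM and WT PBS 3 at 87.3 FPKM. Rpl24 was high in BdP cisplatin 4 at 0.532 FPKM and low in WT PBS 3 at 0.190 FPKM, values that rest on a few reads.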

How the results depend on the processing

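Of 172 recomputed counts of called ribosomal protein genes 171 stayed at 0, and the exception was the fit with sample weights, where 1 gene, Rps2, was called in BdP against WT tumours over both treatments (−0.40). Correlations of the deviations of same-numbered libraries ran from −0.613 to 0.415 (median 0.021), against −0.542 to 0.569 (median −0.008) for different numbers. They do not settle whether equal numbers mark anything shared. With a replicate block 0 of the ribosomal protein genes were called. The median over both treatments, −0.11, could not move, as every group holds each replicate number once. Rescaling to TPM moved the median of all genes tested to 0.82 in BdP against WT under PBS and to 0.70 for cisplatin in WT, and leaving mitochondrial and haemoglobin genes out of the TPM moved it to 0.34 and 0.29. The cause was not tested. Under TPM the median of the ribosomal protein genes was 0.77 for cisplatin in WT, 0.40 for cisplatin over both genotypes, 0.83 for BdP against WT under PBS, 0.46 over both treatments and −0.73 for the interaction. Under TPM without mitochondrial and haemoglobin genes it was 0.19 under PBS and −0.23 for the interaction. Signs turned under TPM for Rpl38 (0.58), Rps14 (0.62), Rpl10 (0.64) and Rpsa (0.68) for cisplatin in WT, for Rps14 (0.26), Rpl10 (0.31), Rpl17 (0.29) and Rpl35a (0.33) for cisplatin over both genotypes, for Rps2 (0.50), Rpl27 (0.67), Rps28 (0.48) and Rpl38 (0.58) in BdP against WT under PBS, for Rps2 (0.19), Rpl27 (0.36), Rps28 (0.20), Rpl36 (0.22) and Rps18 (0.26) over both treatments, and for Rpl38 (−0.49), Rpl27 (−0.63) and Rpsa (−0.55) in the interaction. Without mitochondrial and haemoglobin genes they turned for Rps14 (0.036), Rpl10 (0.058) and Rpsa (0.094) for cisplatin in WT, for Rpl27 (0.028) under PBS, for Rpl35a (0.0021) for cisplatin over both genotypes, and for Rpl27 (−0.13) and Rpsa (−0.050) in the interaction. Without the 3 libraries rich in mitochondrial reads Rps10 turned to −0.11 for cisplatin in WT. Leaving out 1 library at a time, Rps14 in BdP against WT under PBS ran from −0.11 to 0.26, and the median of the genes from −0.20 to −0.01 over both treatments, from −0.34 to 0.03 under PBS, from −0.14 to 0.0044 under cisplatin, from −0.14 to 0.15 for cisplatin in BdP, from −0.30 to 0.08 in WT and from −0.17 to 0.03 over both genotypes, and from −0.10 to 0.27 for the interaction. A pseudocount of 0.1, no filter and fits on the compared groups changed no call of these genes. Of all genes tested, 722 were called over both treatments, against 1490 with sample weights, 449 with no filter, 82 under TPM without mitochondrial and haemoglobin genes (45 higher and 37 lower, against 341 and 381), 39 scaled to the ribosomal protein genes (14 higher and 25 lower) and 532 under TPM (508 higher and 24 lower). Depth limits WT PBS 1 most, with 2239900 reads outside mitochondrial and haemoglobin genes.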
